A study of Mus musculus with 10 samples.

Results

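Conventional CD4 T cells were taken here as CD4 T cells in which no RNA of the regulatory factor Foxp3 was detected. They were examined in single-cell RNA and T cell receptor libraries of CD45+ cells sorted from SW1 melanomas. SW1 is a mouse melanoma line. It was grown under the skin of the right flank in female C3H/HeJ mice aged 4 to 6 weeks at the outset. Per the labels, tumors grew for 10 days before the drinking water was changed, and 5 conditions were then sampled: pretreatment on day 0 (labelled as control water), control water on days 7 and 21, and water with L-fucose (L-fuc), a dietary sugar, on days 7 and 21. Every group carried the same tumor line in the same host, so that no tumor-free tissue and no wild type or mutant comparison is included. The labels give the L-fuc dose once as 100 mM and once as 100 nM, and they count 5 mice in each water arm in one field and 6 in another, with 3 mice at pretreatment. All mice of a condition were pooled into 1 RNA library and 1 matching receptor library, no mouse can be told from another within a pool, and each condition is therefore 1 sample: between conditions no test was possible, and the intervals given cover counting error only.

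CD4 T cells read peptides held on MHC class II molecules through an alpha and a beta receptor chain, and they help other cells through surface ligands such as CD40 ligand and through secreted cytokines. T helper 1 (Th1) cells are driven by the factor T-bet (Tbx21) and make interferon-gamma (Ifng), whereas regulatory T cells express Foxp3 and restrain immune responses. In tumors, CD4 T cells meet antigen on myeloid cells, help CD8 T cells and can take up inhibitory receptors such as PD-1 (Pdcd1) after repeated stimulation. Fucose is attached to proteins by fucosyltransferases from GDP-fucose, which cells make from other sugars or salvage from free L-fuc.

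A barcode was taken as a conventional CD4 T cell when it had at least 500 detected genes, at most 10% of its UMIs (unique molecular identifiers, 1 per captured RNA molecule) from mitochondrial genes, at least 2 UMIs of the CD3 genes Cd3e, Cd3d and Cd3g together, at least 1 UMI of Cd4, none of Cd8a, Cd8b1 or Foxp3, and at most 2 UMIs of the macrophage genes C1qa, C1qb and C1qc. This rule took 370 of 41936 barcodes, 31156 of which passed the gene and mitochondrial limits and 2202 of which also passed the CD3 and C1q limits and are called T cells here. The 370 cells were 90 at pretreatment, 53 in control day 7, 206 in L-fuc day 7, 16 in control day 21 and 5 in L-fuc day 21, and their sums held 543235, 241558, 1349745, 101543 and 35138 UMIs. Median depth per cell was 4383.5, 3231, 4004.5, 5778 and 6393 UMIs in the same order. Compared with them are CD8 T cells (622, with a Cd8 UMI and no Cd4 UMI), Foxp3 CD4 T cells (76) and C1q-rich barcodes, macrophage barcodes with at least 20 C1q UMIs and no CD3 UMI. The last serve as a rough background for RNA that does not belong to the cell. They were chosen without CD3 RNA, so they may hold less stray T cell RNA than other barcodes. Genes that macrophages express themselves also appear in them.

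The genes of the rule describe these cells and are not findings: their median was 14, 6, 11, 44.5 and 28 CD3 UMIs and 1, 1, 2, 6.5 and 4 Cd4 UMIs from pretreatment to L-fuc day 21. The rule did not use the receptor libraries, which therefore gave a separate check that the cells are T cells. They cannot check that the cells are conventional CD4 T cells rather than other T cells. A beta chain (TRB) was assembled for 84.4%, 64.2%, 69.9%, 87.5% and 100% of the cells in the same order, and for 0%, 0.348%, 0.196%, 0% and 0% of C1q-rich barcodes. The low share of C1q-rich barcodes follows in part from their choice, since they hold no CD3 UMI. Other T cells had a beta chain too, CD8 T cells in 88.9%, 61.7%, 65.4%, 76.9% and 75%. In Foxp3 CD4 T cells it was 66.7%, 55.6%, 78.6%, 60% and 100%. Cells at the edges of the rule differed in this respect. Of 33 cells with exactly 2 CD3 UMIs 33.3% had a TRB contig, against 7.55% of 53 barcodes with 1 CD3 UMI. Of 38 cells with 2 C1q UMIs 76.3% had one, against 75% of 24 barcodes with 3. Of 184 cells with a single Cd4 UMI 65.2% had one, against 34.7% of 913 T cells with no Cd4 and no Cd8 UMI that the rule left out on Cd4 alone. A single Foxp3 UMI kept out 24 barcodes, so that cells whose Foxp3 RNA was not captured may be in the set. The C1q limit removed 233 barcodes that met every other criterion, 72 of them in control day 7 and 141 in L-fuc day 7. Of these 233, 74.2% had a TRB contig. No cell of the set shared its barcode with another cell of the set in a second library, although pairs of libraries shared 3 to 433 barcodes.

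Conventional CD4 T cells were a smaller part of the T cells in control day 7 than in any other library, and at day 7 the ratio of their share between the waters was above those of CD8 and Foxp3 CD4 T cells, with an interval that overlapped that of Foxp3 CD4 T cells (the difference was not tested). They were 24.1% of T cells at pretreatment (exact 95% interval 19.9 to 28.8), 7.02% in control day 7 (5.30 to 9.08), 20.8% in L-fuc day 7 (18.3 to 23.4), 32.7% in control day 21 (19.9 to 47.5) and 14.7% in L-fuc day 21 (4.95 to 31.1). The control day 7 interval overlapped only that of L-fuc day 21, which rests on 5 cells. At day 7 the share of T cells was 2.96 times as high in L-fuc as in control (2.18 to 4.08), while the ratio was 1.78 (1.00 to 3.28) for Foxp3 CD4 T cells and 0.901 (0.753 to 1.08) for CD8 T cells. Of all passing barcodes they were 6.12%, 0.296%, 2.28%, 1.02% and 0.423%, which gave a day 7 ratio of 7.70 (5.67 to 10.6). On this denominator the ratio was 4.62 (2.60 to 8.53) for Foxp3 CD4 and 2.34 (1.96 to 2.80) for CD8 T cells, so that all 3 classes were higher in L-fuc and the first 2 intervals overlapped. At day 21 the order was the opposite, with a ratio of 0.450 (0.129 to 1.29) of T cells and 0.416 (0.119 to 1.19) of passing barcodes. Both intervals include 1. With a TRB contig in place of CD3 UMIs the day 21 shares of T cells were closer, 5 of 15 in L-fuc and 14 of 35 in control. From pretreatment to control day 7 the share of T cells was 0.291 times as high (0.203 to 0.413), and from pretreatment to L-fuc day 7 it was 0.862 times as high (0.669 to 1.12).

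**Figure D1:**
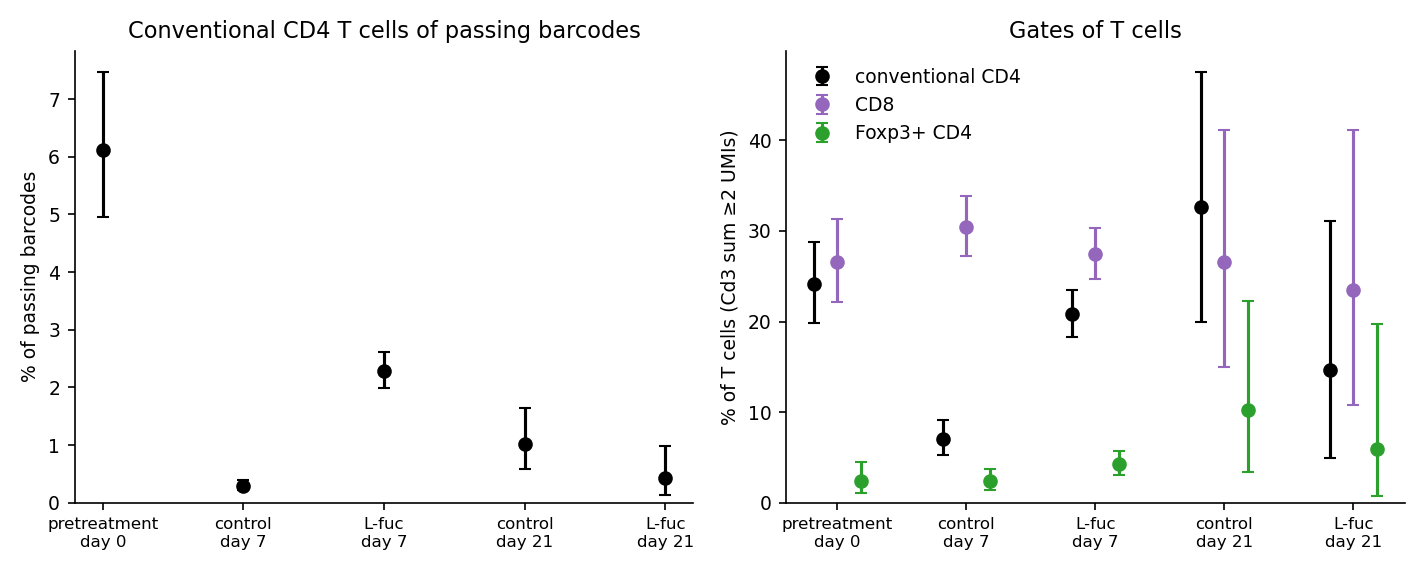
Left, conventional CD4 T cells as a percentage of passing barcodes; right, conventional CD4, CD8 and Foxp3 CD4 T cells as a percentage of T cells, for the 5 libraries, with exact 95% intervals for counting error. Control day 7 has the lowest conventional CD4 share in both panels, 0.296% and 7.02%, whereas the CD8 share of T cells is 26.5% at pretreatment and 30.5% in control day 7.

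The receptor sequences show which of these cells descend from a shared ancestor, since a rearranged CDR3, the stretch of the chain that contacts the antigen, is made anew in each developing T cell. The 5 largest clonotypes of the set, defined by an identical TRB CDR3 within a library, are printed 5′ to 3′ as assembled by the authors' pipeline, with the first and last codon in capitals. They are shown because they carry the clonal expansion described next. The first 3 and the last come from L-fuc day 7 and the fourth from pretreatment.
TRBV10 TRBJ2-7: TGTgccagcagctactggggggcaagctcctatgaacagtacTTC
TRBV13-3 TRBJ2-4: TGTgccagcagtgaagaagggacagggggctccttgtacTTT
TRBV19 TRBJ1-1: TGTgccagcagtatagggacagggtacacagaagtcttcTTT
TRBV12-2+TRBV13-2 TRBJ2-5: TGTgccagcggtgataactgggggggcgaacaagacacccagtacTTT
TRBV1 TRBJ2-7: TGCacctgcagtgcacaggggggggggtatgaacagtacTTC

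The beta segments lie on the plus strand of mouse chromosome 6 (GRCm38, called mm10 in the deposited processing notes, GENCODE vM21). Trbv10 is at 41091940 to 41092228, Trbv13-3 at 41130147 to 41130585, Trbv19 at 41178375 to 41179048 and Trbv1 at 40891229 to 40891885, and the annotation lists them as V segments, Trbv10 as a V pseudogene. The reference is that of the C57BL/6J strain, whereas these mice are C3H/HeJ, and the TRBV10 contigs were assembled as productive.

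These 5 clonotypes held 11, 11, 10, 5 and 4 conventional CD4 T cells. Both chains were recovered in 3 of them for most cells, and the paired alpha chains are printed in the same way. The TRBV13-3 clonotype carried TRAV7D-4 with TRAJ9 in 10 of its 11 cells, the TRBV19 clonotype carried TRAV6N-7 with TRAJ50 in all 10, and the pretreatment clonotype carried TRAV2 with TRAJ15 in all 5. On chromosome 14 of the same build these V segments are at 52769753 to 52770392 (Trav7d-4), 53318798 to 53319284 (Trav6n-7) and 52567198 to 52568051 (Trav2), all on the plus strand.
TRAV7D-4 TRAJ9: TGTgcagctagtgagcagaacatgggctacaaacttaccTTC
TRAV6N-7 TRAJ50: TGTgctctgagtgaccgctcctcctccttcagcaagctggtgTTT
TRAV2 TRAJ15: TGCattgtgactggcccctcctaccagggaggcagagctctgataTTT
For the TRBV10 clonotype an alpha contig was assembled in only 1 cell, with TRAV3-3. In the RNA library Trav3-3 was found in all 11 of its cells, with 40 UMIs.

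With clonotypes defined by both chains, which 74.4%, 50.9%, 59.2%, 81.2% and 80% of the cells had, the L-fuc day 7 library held the most expanded conventional CD4 T cells. Cells sharing both chains with at least 1 other cell were 8 of 67 at pretreatment (11.9%), 3 of 27 in control day 7 (11.1%, 2.35 to 29.2), 36 of 122 in L-fuc day 7 (29.5%, 21.6 to 38.4), 4 of 13 in control day 21 (30.8%) and 0 of 4 in L-fuc day 21. The intervals of the day 7 libraries overlapped. By the beta chain alone the shares were 11.8%, 14.7% (4.95 to 31.1), 39.6% (31.5 to 48.1), 28.6% and 0%, and the day 7 intervals then did not overlap. The number of cells with a beta chain was 34 in control day 7 and 144 in L-fuc day 7. A clone is more often seen again among more cells, and the shares were not equalised for this. CD8 T cells were more often expanded in the first 3 libraries, at 33.3%, 63.6% and 54.2% by both chains, with intervals that did not overlap those of conventional CD4 T cells. Of the 13 expanded TRB clonotypes in L-fuc day 7, 4 were also found in Foxp3 CD4 T cells, in 6 such cells, and 0 in CD8 T cells. These 4 held 17 of the 57 expanded conventional CD4 T cells. The TRBV13-3 clonotype was among them, with 1 Foxp3 CD4 T cell. Over all 100 conventional CD4 clonotypes of that library, 5 were also found in Foxp3 CD4 T cells and 2 in CD8 T cells. None of the 225 TRB nucleotide sequences of the set occurred in a second library.

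**Figure D2:**
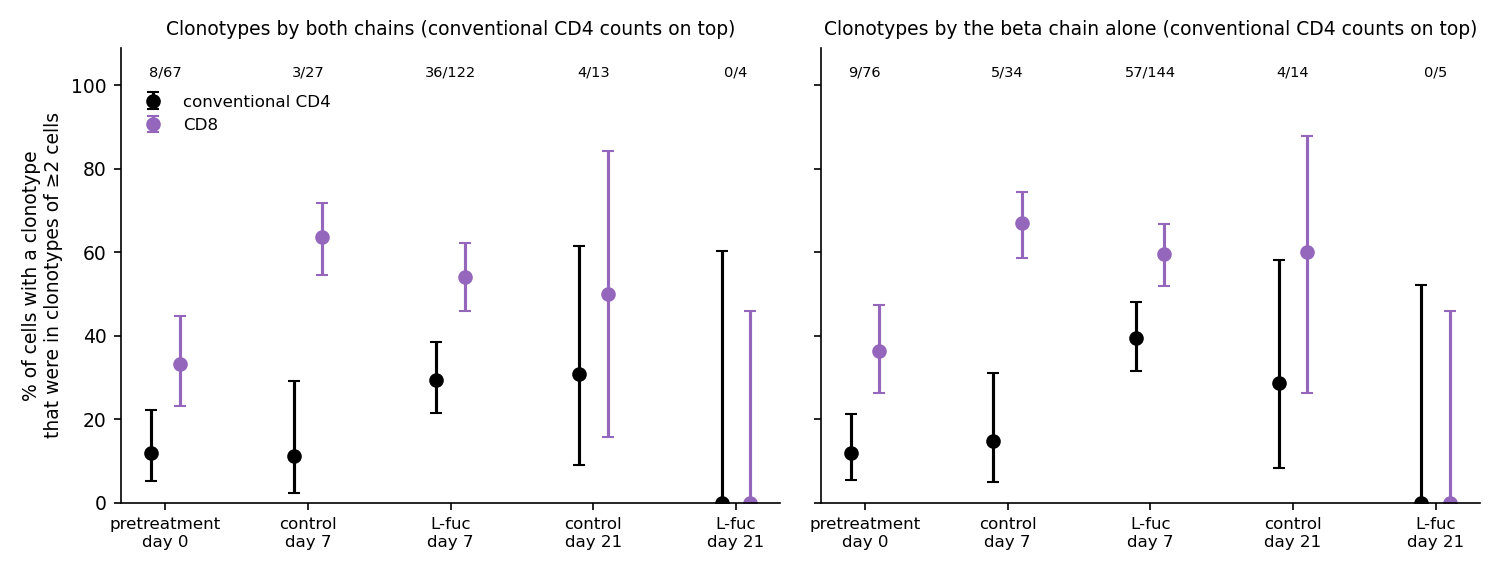
Percentage of cells with a clonotype that were in clonotypes of at least 2 cells, by both chains (left) and by the beta chain alone (right), with exact 95% intervals; conventional CD4 counts stand on top. L-fuc day 7 is the highest conventional CD4 value among the first 3 libraries, at 29.5% and 39.6%, and CD8 T cells lie above it at 54.2% and 59.6%.

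The same clonotypes extended past the edges of the rule. The TRBV10, TRBV13-3 and TRBV19 sequences were found in 23, 20 and 21 barcodes of L-fuc day 7 in all. The C1q limit left out 8, 6 and 8 of these, and the absence of a Cd4 UMI left out 4 of the TRBV10 and 1 of the TRBV19 barcodes. Segment use was broad. TRBV20 was in 34 of 273 cells with a TRB contig over all libraries (12.5%, 8.78 to 17), against 24 of 424 CD8 T cells (5.66%), and 21 of the 34 came from L-fuc day 7, which gave 144 of the 273 cells. At pretreatment and in both control libraries TRBV5 was used more than TRBV20, at 17.1% against 10.5%, 20.6% against 8.82% and 28.6% against 7.14% in order of time, with overlapping intervals. TRBV13-1 and TRBV12-2+TRBV13-2, the latter a segment the assembly reported under a joint name, were each in 31 cells (11.4%), against 6.60% and 8.49% of CD8 T cells. Of 254 cells with an alpha contig 24 used TRAV6N-7 (9.45%), 15 used TRAV7D-4 (5.91%) and 14 used TRAV12-3 (5.51%), against 1.74%, 3.23% and 8.68% of 403 CD8 T cells. The TRAV6N-7 and TRAV7D-4 counts include the TRBV19 and TRBV13-3 clonotypes. TRAV12-3 was uneven between libraries, in 12 of 70 cells at pretreatment, 0 of 31 in control day 7 and 1 of 136 in L-fuc day 7. The invariant alpha chain of natural killer T cells, TRAV11 with TRAJ18, was found in 3 cells, and that of mucosal-associated invariant T cells, TRAV1 with TRAJ33, in none.

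To see what set these cells apart from the other T cells of the same tumors, summed counts were compared within libraries by edgeR's quasi-likelihood test with the library as a block and Benjamini-Hochberg adjustment over all genes. The p-values measure the spread between pooled libraries of different conditions, not between mice, and genes of the rule were left out. Against CD8 T cells, in the 4 libraries with at least 10 cells of each, 29 of 6874 genes were higher (0.422%) and 20 lower (0.291%). Ligands by which CD4 T cells help other cells were among the 10 highest. Cd40lg (GRCm38 chromosome X, 57212143 to 57224042), which encodes CD40 ligand, was at 95.7, 66.2, 104, 335 and 199 UMIs of the gene per 1000000 UMIs (CPM) in the conventional CD4 T cells of the 5 libraries in order, and at 5.77, 3.86, 8.85, 0 and 0 CPM in CD8 T cells. Each conventional CD4 value lay above all CD8 values, and the log2 fold change was 3.85 ± 0.30 (SE, adjusted p = 2.1e-05, edgeR, n = 4 libraries). Tnfsf8, the CD30 ligand, was at 99.4, 145, 127, 355 and 1138 CPM against 23.1, 16.4, 40.1, 0 and 133 CPM, with a log2 fold change of 2.29 ± 0.31 (adjusted p = 0.0044, edgeR). Ccr8, a chemokine receptor also known from regulatory T cells and type 2 helper cells, was at 62.6, 86.9, 104, 423 and 512 CPM against 33.2, 13.5, 10.6, 0 and 0 CPM, and its log2 fold change was 2.53 ± 0.41 (adjusted p = 0.012, edgeR).

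Of the 12 costimulatory genes tested against CD8 T cells 5 were higher and none lower, with a list median of 1.06 on the log2 scale against 0.01 over all genes. Beside Cd40lg and Tnfsf8 these were Tnfsf11 (RANK ligand, log2 fold change 2.04 ± 0.39), Tnfrsf4 (the receptor OX40, 1.97 ± 0.37) and Icos (1.53 ± 0.23). Tbc1d4, which acts in glucose transporter traffic, was also higher (2.58 ± 0.26, adjusted p = 0.00031, edgeR), as was the transcription factor Maf (1.28 ± 0.22). Other leading genes were Ebi3 (3.02 ± 0.37), a subunit of interleukin-27 and interleukin-35, and Tiam1, Asb2, Cib2 and Podnl1, with log2 fold changes from 2.17 to 2.86. The largest value belonged to Stfa3 (7.66 ± 0.52), a stefin A protease inhibitor gene of a family with near-identical copies, for which 30% to 100% of a library's UMIs came from 1 cell. In the CD8 T cells of all libraries it had 1 UMI in total.

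Of 13 cytotoxic genes 4 were lower than in CD8 T cells and none higher, with a median log2 fold change of -0.75, while 4 of the 13 had a log2 fold change above 0. Ccl5, a chemokine of effector T cells, was at 4173, 911, 1753, 1556 and 28.5 CPM against 7746, 4208, 7812, 37570 and 3102 CPM, lower in every library, and its log2 fold change was -2.40 ± 0.40 (adjusted p = 0.014, edgeR). The granzyme gene Gzmk was at 252, 16.6, 52.6, 68.9 and 0 CPM against 294, 217, 307, 970 and 318 CPM, also lower in every library but close at pretreatment (-2.11 ± 0.43, adjusted p = 0.047, edgeR). Beside Ccl5 and Gzmk the cytotoxic genes that passed were Gzmb (-1.30 ± 0.21) and the cathepsin gene Ctsw (-1.54 ± 0.30). Of other lists, the NKG2D receptor gene Klrk1 (-1.31 ± 0.26), 1 of 5 natural killer markers tested, and the Th1 list gene Ly6c2 (-1.49 ± 0.29) were lower too. The lowest values were those of Cytl1 (-3.47 ± 0.59), Wdr95 (-2.95 ± 0.40), Trgv2 (-2.15 ± 0.36), a gamma chain segment, Ctla2a (-2.14 ± 0.30) and Atp8b4 (-2.09 ± 0.31), followed by Dapk2, Ifitm10 and Pde3b. These counts rest heavily on single libraries. Without control day 7 or without L-fuc day 7, 4 or 6 genes were higher and 4 or 3 lower, and without pretreatment 105 were higher and 30 lower.

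Foxp3 CD4 T cells numbered at least 10 only in the day 7 libraries (18 and 42 cells), so that this comparison rests on 2 libraries. Of 5001 genes 33 were higher (0.66%) and 28 lower (0.56%) in conventional CD4 T cells. The counts depend on the method: DESeq2 gave 6 higher and 6 lower, thinning to 2000 UMIs 3 and 4 (with cells under 2000 UMIs left out, 223 conventional and 57 Foxp3 CD4 T cells remained of 259 and 60), and libraries with at least 5 cells of each 8 and 9. Foxp3 CD4 T cells were deeper, with medians of 6769 and 6617 UMIs against 3231 and 4004.5. Ifng was at 141 and 1053 CPM in the conventional CD4 T cells of control and L-fuc day 7 against 25.9 and 87.9 CPM (log2 fold change 3.45 ± 0.28, adjusted p = 4.4e-05, edgeR, n = 2 libraries). Csf2, which encodes GM-CSF, was at 62.1 and 442 CPM against 25.9 and 0 CPM (5.61 ± 0.89, adjusted p = 0.0091, edgeR). The chemokine gene Ccl1 was at 1445 and 856 CPM against 17.3 and 10.3 CPM (6.39 ± 0.27, adjusted p = 1.1e-07, edgeR). Each of these genes was higher in conventional CD4 T cells in both libraries. Ifng and Ccl1 also passed with DESeq2 and after thinning, whereas Csf2 did not, and with at least 5 cells Ifng did not pass (2.09). Not all secreted factors had this direction, since of 3 Th2 genes tested 1, Areg, was lower and 0 were above 0. Of 14 Th1 genes 5 were higher and none lower (median 1.07), and of 12 cytotoxic genes 4 were higher, Prf1 (perforin) among them at 2.42 ± 0.39. The ligand genes Tnfsf8 (4.99 ± 0.55), Cd70 (4.17 ± 0.66), Tnfsf11 (3.83 ± 0.51) and Cd40lg (2.25 ± 0.43) were higher as well. Since only 3 genes were higher after thinning, Ifng and Ccl1 among them, most of these ligand genes did not pass there.

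Genes associated with regulatory T cells were lower in conventional CD4 T cells, 5 of 10 tested with a median of -1.33 against 0.0013 over all genes. Ikzf2 (Helios) was at 161 and 91.1 CPM against 466 and 662 CPM (-2.26 ± 0.30, adjusted p = 0.0021, edgeR), and Il2ra, the high-affinity interleukin-2 receptor chain, was at 95.2 and 65.9 CPM against 233 and 240 CPM (-1.60 ± 0.27, adjusted p = 0.014, edgeR). Ctla4 was at 120 and 359 CPM against 311 and 830 CPM (-1.22 ± 0.20, adjusted p = 0.0091, edgeR). Ikzf2 passed with DESeq2 and after thinning as well, Il2ra and Ctla4 with neither. The L-fuc day 7 value of Ctla4 in conventional CD4 T cells thus exceeded the control day 7 value in Foxp3 CD4 T cells, although within each library the order was the same. Areg (-2.32 ± 0.30), Izumo1r (-2.21 ± 0.28), Tnfrsf4 (-1.78 ± 0.22) and Tnfrsf9 (-1.44 ± 0.26) were lower, and Ly6a (-2.94 ± 0.24) had the lowest value. Tnfrsf4 therefore lay between both T cell classes, above CD8 and below Foxp3 CD4 T cells. Since only 4 genes were lower after thinning, Ikzf2 among them, not all of these genes passed there. The high values of S100a9 (11.58 ± 0.68), G0s2 (8.64 ± 1.03) and Igkc (3.40 ± 0.38), came almost wholly from 1 cell in a library, S100a9 and Igkc being markers of neutrophils and B cells.

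**Figure D3:**
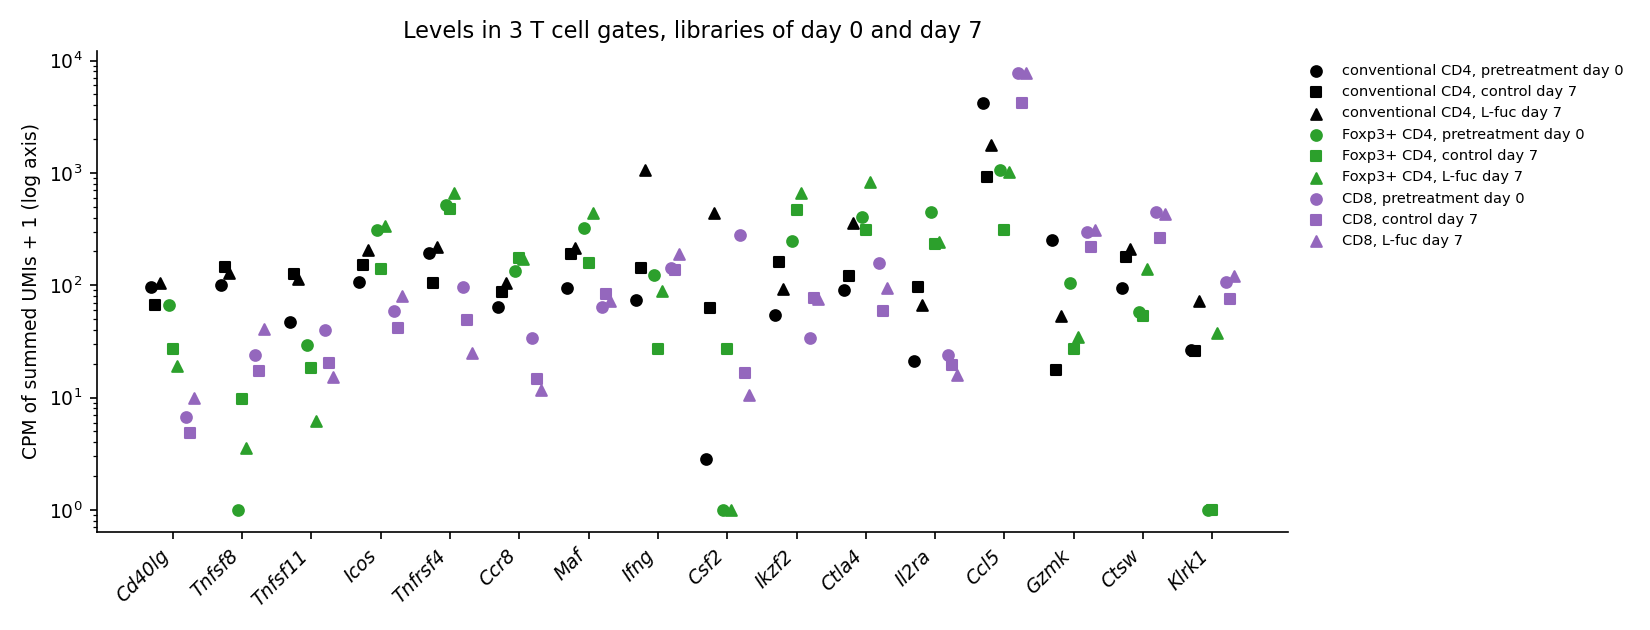
Summed CPM + 1 on a log axis of 16 genes in conventional CD4, Foxp3 CD4 and CD8 T cells at pretreatment (circle), control day 7 (square) and L-fuc day 7 (triangle). Cd40lg and Tnfsf8 sit highest in conventional CD4 T cells, Ikzf2 and Il2ra in Foxp3 CD4 T cells, and Ccl5 and Gzmk in CD8 T cells.

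Over the 5 libraries Ifng and the inhibitory receptor gene Pdcd1 were higher in L-fuc day 7 and in both day 21 libraries than at pretreatment, and naive and memory genes had their highest sum at pretreatment. Ifng was at 73.6, 141, 1053, 1989 and 1338 CPM from pretreatment to L-fuc day 21, whereas in CD8 T cells it stayed between 135 and 247 CPM. Pdcd1 was at 160, 153, 288, 1221 and 1622 CPM, so that the day 21 libraries were highest and the first pair could not be told apart (ratio 0.956, 0.633 to 1.42). The 14 naive and memory genes summed to 2509, 811, 1354, 364 and 2106 CPM, with 7 of them at 0 in control day 21, Tcf7 included. The 17 Th1 genes summed to 5233, 2111, 5228, 9405 and 5322 CPM. The pretreatment value is mostly Ccl5, at 4173 CPM. At day 21 the values rest on 16 and 5 cells and are described only. To compare shares of cells at equal depth, cells were thinned to 2000 UMIs and shallower cells were left out, which kept 81 of 90, 39 of 53, 184 of 206, all 16 and all 5 conventional CD4 T cells of the libraries in order. Ifng was then found in 62.5% of the control and 40% of the L-fuc cells of day 21. Cd40lg was found in 31.2% and 20% of thinned cells of day 21, and in none of the CD8 T cells there.

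Cytokines of other helper fates were found in few cells, while the Th2 factor Gata3 was found in every library. Il17a, the Th17 cytokine, had 42 UMIs in L-fuc day 7, 95.2% of them in 1 cell. Cxcr5, a follicular helper receptor, was at 35 CPM at pretreatment and at 0.741 CPM or 0 elsewhere. Gata3 was at 51.5, 74.5, 64.5, 256 and 171 CPM. The Th2 cytokine Il13 had 105 UMIs at pretreatment, 93.3% of them in 1 cell, and Il4 reached 16.6 CPM at pretreatment and at most 1.48 CPM in the other libraries.

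At day 7 the question was how conventional CD4 T cells differed between L-fuc and control water (206 against 53 cells). Here a gene is called when the log2 ratio of its summed CPM, with a pseudocount of 1 UMI, passes 2-fold among genes with at least 30 UMIs over both libraries, with no test, since each water is 1 library. The cells held 1349745 UMIs in L-fuc and 241558 in control, so a gene found mainly in L-fuc reached this minimum at a lower CPM than one found mainly in control. Genes with few control UMIs, such as Btla, Il10 and Il12rb2 below, entered through L-fuc, and the counts of genes called higher include them. Of 6289 genes 306 were called higher in L-fuc (4.87%) and 685 lower (10.9%), with a median log2 ratio of -0.19. Scaling by TMM (trimmed mean of M values) moved the median by 0.30 on the log2 scale and gave 581 higher and 312 lower, so the split between directions depends on the scaling, and list medians are to be read against that of all genes. Most lists of T cell genes had medians above that of all genes. Beside Th1 (1.10), cytotoxic (1.03), regulatory T cell (0.95) and inhibitory receptor genes (0.88) these included costimulatory (0.67), follicular helper (0.64), naive and memory (0.50), trafficking (0.50), T cell receptor signalling (0.40) and interferon response genes (0.39), so that effector lists did not stand alone. Cell cycle genes (-0.76) lay below it. TMM scaling adds the same amount to every log2 ratio and cannot change this order. Each call was also taken under 7 alternatives that change the cells or their weight, namely thinning, the mean of the cells' shares of UMIs, removal of Scrublet doublets, cells with a TRB contig, cells of clonotypes seen once, no C1q maximum, and leaving out the cell with most UMIs of the gene in each library. Of the named genes, 20 of 60 called higher and 17 of 31 called lower stayed past 2-fold in each alternative that gave them a value.

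Of 15 Th1 genes 9 were called higher and none lower, with a median log2 ratio of 1.10. Ifng had 1421 UMIs in L-fuc and 34 in control, a CPM ratio of 7.48 (95% interval 5.33 to 10.8), of which 1 cell in L-fuc held 29%. Its log2 ratio of 2.86 was 1.60 after thinning and 2.17 by the mean of the cells' shares. Ifng was found in 43.2% and 22.6% of cells, and in 32.6% and 20.5% after thinning to 2000 UMIs, while C1q-rich barcodes showed it in 2.64% and 0.812% at median depths of 6982 and 6607.5 UMIs. Tbx21, the Th1 master factor, had 92 and 4 UMIs (ratio 4.12, 1.55 to 15.4), and Stat4, which transmits interleukin-12 signals, had 120 and 5 (ratio 4.30, 1.79 to 13.5). Neither was called throughout, since the log2 ratio of Tbx21 went from 1.73 to 0.78 among cells with a TRB contig, and that of Stat4 from 1.85 to 0.76 after thinning and 0.63 in single clonotypes. Csf2 had 596 and 15 UMIs (7.11, 4.28 to 12.8), in 9.71% and 5.66% of cells, and its log2 ratio of 2.74 fell short of 2-fold after thinning (0.84) and in single clonotypes (0.95). Tnf (3.04, 1.56 to 6.78), Ly6c2 (2.46, 1.48 to 4.38), Runx3 (2.33, 1.38 to 4.24) and Il18r1 (2.14, 1.26 to 3.90) were called too, whereas Ccl5 (1.92, 1.68 to 2.22) and Bhlhe40 (1.90, 1.53 to 2.39) fell short of 2-fold. Il12rb2 was called on 35 and 2 UMIs, with a ratio of 3.13 whose interval of 0.805 to 26.9 includes 1. This Th1 count was not stable: it was 4 of 14 among cells with a TRB contig, 4 of 13 after thinning, and 2 of 13 among cells of clonotypes seen once, where the median log2 ratio was 0.31 against -0.13 over all genes. Among the last cells the log2 ratio of Ifng was 2.33, and of the 9 called genes Ifng was the only one past 2-fold in every alternative that gave a value.

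Cytotoxic genes behaved alike, 7 of 13 called higher with a median of 1.03. Ccl3 had 1090 and 55 UMIs (ratio 3.55, 2.70 to 4.74), Nkg7 2484 and 196 (2.27, 1.96 to 2.64), Gzmb 147 and 7 (3.76, 1.78 to 9.51) and Gzma 489 and 42 (2.08, 1.52 to 2.93), although Gzma was found in a smaller share of L-fuc cells (12.6% against 18.9%). Ccl4 had 2014 and 160 UMIs (2.25, 1.92 to 2.66) but was lower in L-fuc among cells of clonotypes seen once, with a log2 ratio of -1.32. After thinning only 1 of 10 cytotoxic genes was called. Ccl3 (log2 ratio 0.53), Ccl4 (0.38), Nkg7 (0.91) and Gzma (0.87) then fell short of 2-fold, Gzmb did so by the mean of the cells' shares (0.11), and of the 7 called genes only Klrd1, a natural killer receptor chain, stayed past 2-fold throughout. Of 5 natural killer markers tested 3 were called higher. They include Gzma, which the cytotoxic list also holds, and Ncr1, which stayed past 2-fold in every alternative that gave a value. The whole list of natural killer markers summed to 956 CPM in control and 1232 CPM in L-fuc, led by Fcer1g, with Klra8 and Klra4 at 0. Their part in the cytotoxic result was not tested.

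Inhibitory receptors were called higher for 5 of 11 genes (median 0.88). Ctla4 had 485 and 29 UMIs (ratio 2.99, 2.06 to 4.52) and was found in 29.3% and 12.8% of thinned cells. Lag3 had 300 and 17 UMIs (3.16, 1.94 to 5.49), in 25% and 12.8% of thinned cells. C1q-rich barcodes showed Lag3 in 20.1% and 24.5%, and in 9.14% and 11% after the same thinning. The control share is thus close to that of thinned C1q-rich barcodes, and whether Lag3 there is stray RNA was not tested. Pdcd1 was at a ratio of 1.88 (1.34 to 2.71) and was not called, and Btla was called on 29 and 1 UMIs (5.19, 0.861 to 212). Of the 5 called genes Ctla4 alone stayed past 2-fold in every alternative, and Lag3 fell to a log2 ratio of 0.64 after thinning. Genes associated with regulatory T cells were called higher for 5 of 10 (median 0.95), although cells with a Foxp3 UMI had been left out. These were Ctla4 and Tigit (2.09, 1.41 to 3.22), which the inhibitory list also holds, Tnfrsf4 and Tnfrsf9, which the costimulatory list also holds, and the cytokine Il10 (47 and 1 UMIs, 8.41, 1.44 to 339). Ikzf2, in contrast, was at 0.564 (0.391 to 0.831) and Il2ra at 0.693 (0.434 to 1.15). Of 12 costimulatory genes 3 were called higher, Tnfrsf9 (3.48, 2.27 to 5.61), Slamf1 (5.19, 1.37 to 43.9) and Tnfrsf4 (2.10, 1.40 to 3.31). Of these 3, Tnfrsf9 fell to a log2 ratio of 0.87 by the mean of the cells' shares, Tnfrsf4 to between 0.34 and 0.94 in 6 of the 7 alternatives, and Slamf1 stayed past 2-fold. Cd40lg, with the largest log2 fold change over CD8 T cells after Stfa3 among the named genes, was at 1.57 (0.931 to 2.82). That interval includes 1. Of 22 T cell receptor signalling genes 6 were called higher (median 0.40). They included the kinase genes Zap70 (2.65, 1.70 to 4.34) and Prkcq (2.95, 1.31 to 8.24), the CD3 zeta gene Cd247 (2.43, 1.67 to 3.68) and the receptor constant region Trac (2.16, 1.52 to 3.16). None of the 6 stayed past 2-fold in every alternative, Zap70 (log2 ratio 0.46), Prkcq (0.76) and Trac (0.96) being lost after thinning and Cd247 in single clonotypes (0.64). Beside them stand the CD3 UMIs on which the cells were chosen, with a median of 11 per cell in L-fuc and 6 in control, and the smaller share of control cells with a TRB contig (64.2% against 69.9%).

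Cell cycle genes were lower in L-fuc, 6 of 18 called lower and none higher (median -0.76), and 4 of 18 under TMM scaling. Mki67, the Ki-67 proliferation marker, had 94 UMIs in L-fuc and 52 in control (ratio 0.324, 0.228 to 0.463), with 54% of the control UMIs in 1 cell, and its log2 ratio without the top cell of each library was -1.03. Top2a (0.463, 0.333 to 0.653), Cdk1 (0.216, 0.122 to 0.388), Ube2c (0.249, 0.164 to 0.381) and Cenpf (0.284, 0.149 to 0.556) were called lower, and Top2a was found in 18% and 37.7% of cells. Of the 6 called genes 4, Mki67, Top2a, Cdk1 and Ube2c, stayed past 2-fold in each of the 7 alternatives that gave a value. Cenpf was at a log2 ratio of -0.99 with no C1q maximum. TMM scaling, counted apart from these 7, took Top2a short of 2-fold. Naive and memory genes were called higher for 3 of 12, among them Klf2 (298 and 20 UMIs, 2.67, 1.70 to 4.43). Klf2 was found in 29.9% and 12.8% of thinned cells but also in 23.5% and 27.7% of thinned C1q-rich barcodes. Whether Klf2 in the C1q-rich barcodes is stray or their own RNA was not tested, nor how much in the T cells is stray. Ccr7, the lymph node homing receptor, had a ratio of 3.14 (2.10 to 4.90) and was found in 16% and 17% of cells, with a log2 ratio of 0.72 after thinning. Tcf7 (1.48, 0.876 to 2.66) had an interval that includes 1.

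**Figure D4:**
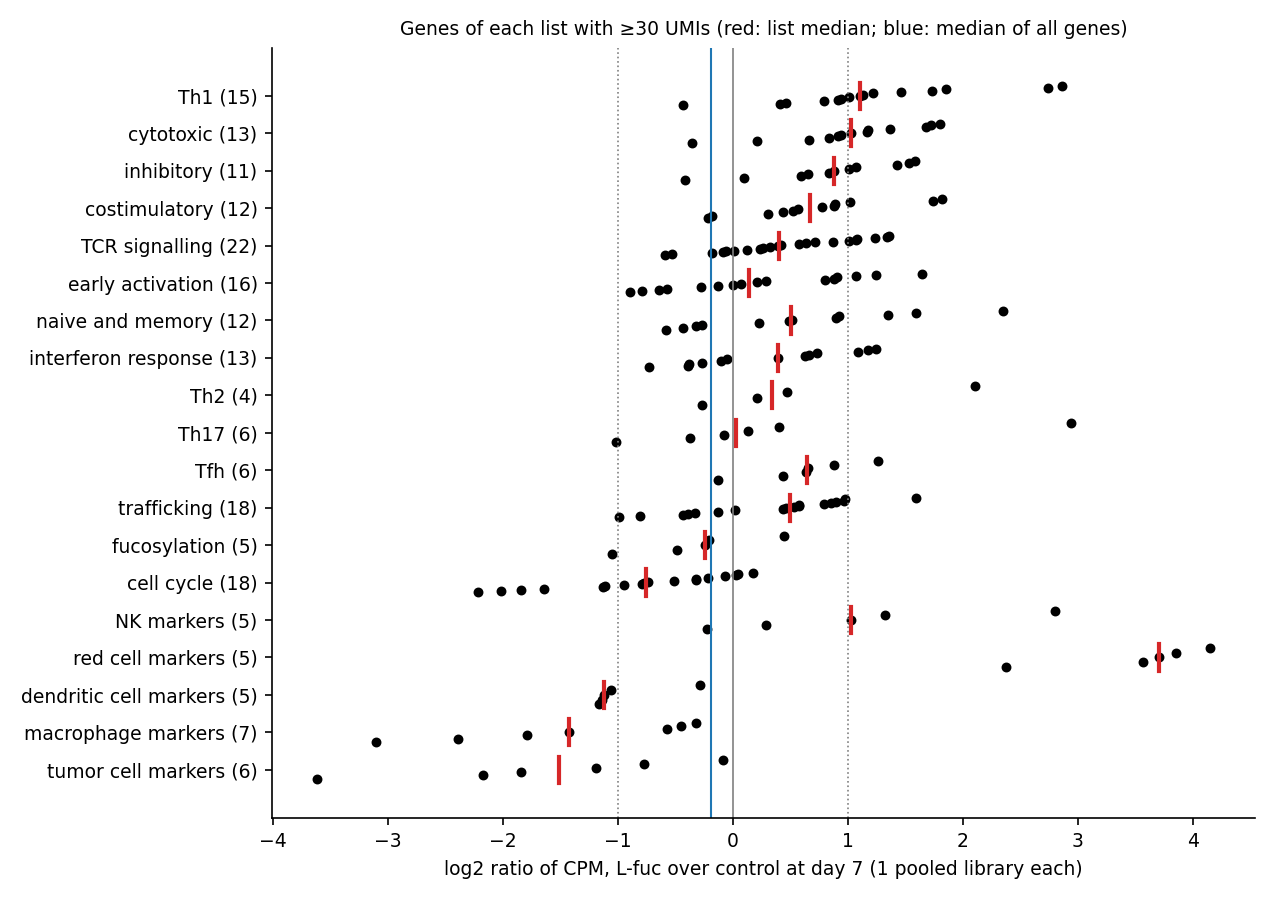
Log2 ratio of summed CPM, L-fuc over control at day 7, for the tested members of 19 gene lists in conventional CD4 T cells; red marks are list medians, the blue line is the median of all genes (-0.19) and dotted lines mark 2-fold. Th1 genes (median 1.10) and cytotoxic genes (1.03) lie above the blue line and cell cycle genes (-0.76) below it.

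Genes foreign to T cells were among the extremes of this comparison. Globin RNA led the higher genes: Hbb-bs was found in 90.8% of conventional CD4 T cells in L-fuc day 7 and 28.3% in control day 7, and likewise in 92.4% and 39.2% of C1q-rich barcodes and 93% and 42.6% of CD8 T cells. All 5 red cell markers were called higher, and the list summed to 0, 224, 3904, 0 and 0 CPM over the libraries. With no C1q maximum 3 of the 5 were called. The log2 ratio of Hbb-bs then went from 4.15 to 1.40, that of Hbb-bt from 3.57 to 0.97 and that of Alas2 from 3.71 to 0.67. All 3 neutrophil markers tested were called higher, S100a9 on 1272 and 10 UMIs (22.8-fold), S100a8 on 942 and 0 (at least 56.2-fold) and Retnlg on 64 and 0 (at least 3.82-fold), each with over 95% of the L-fuc UMIs in 1 cell. Their list of 6 summed to 9.20, 45.5, 1706, 0 and 0 CPM. The B cell gene Igkc was 52.4-fold higher, with 97.6% of its UMIs in 1 cell. Sparc, a matrix gene of the tumor list, was found in 69.8% of control and 27.2% of L-fuc cells, and in 76.1% and 29.1% of C1q-rich barcodes. Of 6 tumor genes tested 4 were called lower in L-fuc, of 7 macrophage genes 4 and of 5 dendritic cell genes 4. The tumor list summed to 655, 2451, 1059, 335 and 228 CPM, led by Cnn2 and in control day 7 by Sparc, with the pigment gene Tyr at 0 in all 5. The macrophage list summed to 1058, 1548, 702, 847 and 911 CPM, led by Ctsb, with Adgre1 at 0 in control day 7. The dendritic cell list summed to 8400, 4260, 1991, 502 and 256 CPM, led by Cd74. The part of these RNAs in the called genes was not tested.

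By the rule for named genes, the highest ratios beside globins and Ifng were those of Trav3-3 (79 and 0 UMIs, at least 4.71-fold higher against a floor of 3 UMIs), the segment of the TRBV10 clonotype, and Alas2 (72 and 0, at least 4.30-fold), which makes heme. They were followed by Ifitm1 (233 and 3, 13.9, 4.70 to 67.9), Klrc1 (132 and 2, 11.8, 3.21 to 98.6), Pglyrp1 (190 and 3, 11.3, 3.82 to 55.5) and Gbp6 (53 and 0, at least 3.16-fold). Among the lowest were Col3a1 (9 and 21 UMIs, 0.0767, 0.0309 to 0.175) of the tumor list and Apoe (47 and 73 UMIs, 0.115, 0.0781 to 0.169) of the macrophage list. The others were Adamts1 (0.0778, 0.0331 to 0.170), Gas7, Pdlim4, Chl1, Pam, Timp3, Col5a3 and Pou3f1.

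In genes that handle fucose no difference between the waters could be told from counting error. Of 20 genes in the list 18 are in the matrices and 5 had enough UMIs at day 7. Of these Slc35c2, related to the GDP-fucose transporter, was called lower on 26 and 9 UMIs (ratio 0.517, 0.235 to 1.25), and the list median was -0.25 against -0.19 over all genes. Pofut2, an O-fucosyltransferase, was at 1.49 (0.745 to 3.39), Fut8, which adds core fucose, at 0.954 (0.394 to 2.79), Tsta3, an enzyme of GDP-fucose synthesis, at 0.776 (0.370 to 1.82), and the fucosidase Fuca1 at 0.906 (0.526 to 1.66). All 5 intervals include 1. The list summed to 304, 282, 288, 404 and 313 CPM over the libraries, with Fut1, Fut2, Fut4 and Fut9 at 0 in all 5. Against CD8 and Foxp3 CD4 T cells the tested member with the smallest p was Gmds, the first enzyme of de novo GDP-fucose synthesis, with log2 fold changes of -1.02 ± 0.34 and -1.56 ± 0.46 that did not pass (adjusted p = 0.27 and 0.186, edgeR).

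Control day 7 was also compared with pretreatment (53 against 90 cells), the course without L-fuc. It shares the control day 7 library with the comparison of waters, so that a high or low value in that library moves both, and the results are given side by side with nothing drawn from their likeness. Of 3688 genes 559 were called higher at day 7 (15.2%) and 303 lower (8.22%), with a median of 0.12. TMM scaling moved the median by -0.38 and gave 338 higher and 619 lower. Naive and memory genes were lower at day 7, 10 of 13 called and none higher, with a median of -1.33 and the same count under TMM.

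Klf2, which keeps T cells circulating, had 20 UMIs at day 7 and 247 at pretreatment (ratio 0.182, 0.109 to 0.287), and was found in 12.8% and 54.3% of thinned cells, against 27.7% and 20.9% of thinned C1q-rich barcodes. Tcf7 had 16 and 144 UMIs (0.25, 0.139 to 0.420), in 10.3% and 43.2% of thinned cells. Igfbp4 and Dapl1 had 0 UMIs at day 7 against 158 and 42, at least 23.4-fold and 6.23-fold lower. S1pr1 (0.214, 0.0757 to 0.493), Lef1 (0.381, 0.225 to 0.616), Ccr7 (0.413, 0.258 to 0.637), Satb1 (0.395, 0.180 to 0.780) and Il7r (0.475, 0.309 to 0.708) were called lower as well. Of the 10 called genes 7 stayed past 2-fold in each of the 7 alternatives that gave a value, Klf2, Tcf7, Igfbp4, Dapl1, S1pr1 and Lef1 among them. Ccr7 was at a log2 ratio of -0.99 after thinning and Satb1 at -0.80 among cells with a TRB contig, and Il7r was between -0.43 and -0.87 in 6 alternatives. Receptor signalling genes were lower for 8 of 22 (median -0.73), Cd247 (0.311, 0.203 to 0.459), Lat (0.409, 0.292 to 0.562) and Trat1 (3 and 40 UMIs, 0.169, 0.0334 to 0.530) among them, of which 3 stayed past 2-fold throughout, while Lat was at -0.69 among cells with a TRB contig. Of 13 cytotoxic genes 5 were called lower, Gzmk (0.0657, 0.0176 to 0.172) and Ccl4 (0.488, 0.409 to 0.580) included. Gzmk, Ccl5 and the transcription factor gene Eomes stayed past 2-fold throughout, whereas the log2 ratio of Ccl4, at -1.03, was 0.19 after thinning, the opposite direction, and between -0.37 and -0.84 in 5 other alternatives. The 2 cytotoxic genes called higher were Gzma (42 and 1 UMIs, 94.5, 16.1 to 3823) and Fasl (2.11, 0.971 to 4.55), the latter at a log2 ratio of 0.18 with no C1q maximum. Of 4 Th17 genes tested 3 were called higher (median 1.54) and 2 under TMM scaling, the factor Maf (2.03, 1.33 to 3.08) and Tmem176a (4.91, 2.31 to 11.1) and Tmem176b (4.27, 2.42 to 7.75), which myeloid cells also express, and none of the 3 was past 2-fold with no C1q maximum (log2 ratios of 0.48, 0.95 and 0.86). Ccl1 was at 36.8 CPM at pretreatment and 1445 CPM in control day 7.

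Cell cycle genes were called higher for 4 of 15, Mki67 at 5.57 (3.30 to 9.73) and Top2a at 2.94 (1.90 to 4.58), but under TMM scaling 2 were higher and 1 lower and the list median was -0.02. With no C1q maximum Top2a was at a log2 ratio of 0.92, and Mki67 alone stayed past 2-fold in every alternative that gave a value. All 10 mitochondrial genes tested were higher at day 7 (median 2.36), with sums of 4661, 25075, 15916, 17155 and 14315 CPM over the 5 libraries, the pretreatment library standing apart. B cell markers were lower for 5 of 5 tested, from a list sum of 1011 CPM at pretreatment to 29.0 CPM, and tumor genes were higher for 3 of 4. Among the named genes Cd79a, Cd79b, Ms4a1, Ebf1 and Iglc2, all of B cells, Cxcl2 (6 and 697 UMIs, 0.0194, 0.00708 to 0.0424), Nsg2 and Trav12-3 (0 and 61) were lowest, and Ecrg4 (172 and 0), Sparc (325 and 1), Tm4sf1, Serpinh1, Ccn1, Col18a1, Chl1, Pou3f1, Col5a2 and Dag1 highest. The part of B cell and tumor RNA was not tested.

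Within L-fuc day 7, the only library with enough cells of each kind, the 57 cells of expanded TRB clonotypes were set beside the 87 of clonotypes seen once. The expanded cells carried more RNA for inhibitory receptors and for Ifng, Csf2 and Ccl4. They were also deeper, with a median of 5564 against 4147 UMIs, and with 1 library no test was made. Of 4592 genes 158 were past 2-fold higher (3.44%) and 195 lower (4.25%), with a median of 0.02. Of 10 inhibitory receptors 6 were higher (median 1.12), Pdcd1 at 2.40 times (1.88 to 3.07), Havcr2 at 4.18 times (2.68 to 6.71), Lag3 at 3.58 times (2.65 to 4.90), with Ctla4, Tigit and Vsir between 2.16 and 2.24 times. Ifng had 1102 and 189 UMIs (7.83, 6.71 to 9.19), Csf2 347 and 63 (7.40, 5.64 to 9.84) and Ccl4 1526 and 207 (9.90, 8.56 to 11.5). Of the 1102 Ifng UMIs 759 were in 2 cells, and without the 2 cells with most Ifng UMIs of each group the ratio was 3.76 (3.06 to 4.64). The same step gave 33.6 (12.7 to 126) for Csf2, with 4 UMIs left in single cells, 11.5 (9.16 to 14.6) for Ccl4, and 5 of 10 inhibitory receptors higher, Tigit falling to 1.94. Of 734 Ccl1 UMIs in expanded cells 514 were in 2 cells, and Ccl1 went from 4.01 times (3.46 to 4.65) to 2.29 times (1.84 to 2.85), whereas Havcr2 was then at 8.18 (4.15 to 17.9) and S1pr1 at 0.227 (0.0686 to 0.590). Of 11 naive and memory genes 4 were lower, among them Tcf7 at 0.259 (0.145 to 0.439), S1pr1 at 0.389 (0.179 to 0.776) and Lef1 at 0.431 (0.234 to 0.756). After thinning, which kept 56 of 57 expanded and 81 of 87 single cells, Ifng was found in 42.9% of expanded and 29.6% of single cells, Pdcd1 in 44.6% and 19.8% and Lag3 in 37.5% and 12.3%, so that the order of these shares was the same at equal depth. In thinned C1q-rich barcodes of the library they were 1.00%, 0.557% and 9.14%, which is close to the Lag3 share of single cells. Markers of other cells moved as well. All 3 neutrophil markers tested were higher, with list sums of 5106 and 11.6 CPM, led by S100a9 with 98.5% of its UMIs in 1 cell. So were 2 of 4 macrophage markers, with sums of 1016 and 540 CPM, led in expanded cells by Lyz2 with 95.4% in 1 cell. Without the top cell of each group 0 macrophage markers were higher and 1 was lower, and the list median went from 0.75 to -0.27. Dendritic cell markers were lower for 1 of 5 and tumor markers for 1 of 4. Without the top cell these counts were 4 and 3. With 2 cells left out 0 neutrophil markers were higher. Natural killer markers were lower for 3 of 5, at 558 and 1531 CPM. Their part in the result was not tested. Gzma was lower in expanded cells (0.156, 0.103 to 0.230). The activation genes Nr4a1 (2.76, 2.14 to 3.58) and Irf4 (2.97, 1.54 to 6.05) were higher, together with Mir155hg (8.06, 3.59 to 21.3) and Prf1 (4.01, 2.95 to 5.51).

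The 3 largest clonotypes were unlike each other, and most of their Ifng UMIs came from one of them, largely from 1 cell. The cell with most Ifng UMIs in the library belonged to none of the 3. The TRBV19 clonotype (10 cells) held 513 Ifng UMIs at 4078 CPM, 67.3% of them in 1 cell, and the TRBV13-3 clonotype (11 cells) held 77 at 722 CPM. The TRBV10 clonotype (11 cells) held 2 Ifng UMIs, both in the same cell. Cells of single clonotypes were at 314 CPM. These clonotypes differed in depth, with medians of 10061.5, 8442 and 3535 UMIs, so that shares were compared after thinning to 2000 UMIs. Ifng was then found in 6 of 10 TRBV19, 6 of 11 TRBV13-3 and 1 of 11 TRBV10 cells, Pdcd1 in 6, 6 and 1, Lag3 in 5, 8 and 0, Havcr2 in 6, 2 and 0 and Ctla4 in 6, 7 and 1. The TRBV10 cells instead showed Tbx21 in 6 of 11 and Klf2 in 6 of 11, against 1 and 0 of 10 TRBV19 cells and 2 and 2 of 11 TRBV13-3 cells. Il7r, the survival cytokine receptor of memory cells, was found in 0, 3 and 2 of the TRBV10, TRBV13-3 and TRBV19 cells, and Ccr7 had no UMI in the TRBV10 cells at any depth. The TRBV10 clonotype thus combined the factor of Th1 cells with almost no Ifng RNA and few inhibitory receptors, while more cells of the other two held Ifng and inhibitory receptor RNA. Thinned C1q-rich barcodes of this library showed Lag3 in 9.14%, Havcr2 in 10.9%, Klf2 in 23.5% and Tbx21 in 1.11%. Cells of a clonotype share their library and cannot be assigned to a mouse, and they are not replicates of a state.

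**Figure D5:**
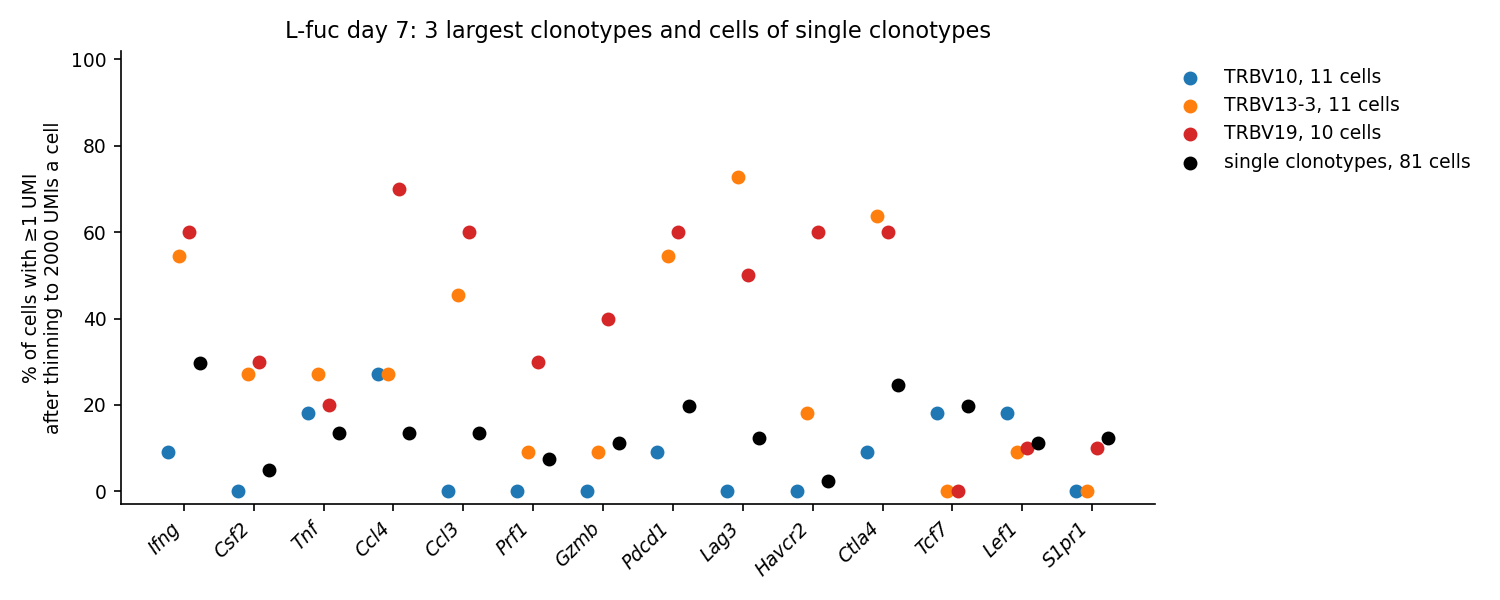
Percentage of cells with at least 1 UMI of 14 genes after thinning to 2000 UMIs, for the 3 largest clonotypes and the cells of single clonotypes in L-fuc day 7. Ifng is at 54.5% and 60% in the TRBV13-3 and TRBV19 clonotypes, 9.09% in the TRBV10 clonotype and 29.6% in single clonotypes.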

How the data were processed

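Tumor-infiltrating CD45+ cells of each condition had been pooled and loaded as 1 gene expression and 1 receptor library. The authors aligned reads to mm10 and counted UMIs with Cell Ranger (3.0 per the labels, 7.1.0 per the file headers of the matrices) and used Seurat 4.0, and they deposited the matrices as unnormalized UMI counts for 32285 features and the receptor contigs with their read and UMI counts. The deposited clonotype and consensus tables were not used, since clonotypes were rebuilt from productive contigs so that they could be tied to cells. Libraries held 1725, 20741, 15288, 2754 and 1428 barcodes and 14439185, 119047810, 88986101, 21727157 and 16589803 UMIs (pretreatment, control day 7, L-fuc day 7, control day 21, L-fuc day 21). Barcodes with at least 500 genes and at most 10% mitochondrial UMIs were kept. Doublets were marked with Scrublet in scanpy 1.11.5 (2, 344, 153, 5 and 1 barcodes) and kept in the results given, with their removal as an alternative.

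Cells were chosen by UMIs as stated in the report, and UMIs were summed per library and class. Classes within libraries were compared with edgeR 4.0.16 (quasi-likelihood test, TMM factors, library as block, filterByExpr, at least 10 cells of each class, adjusted p under 0.05), with DESeq2 1.42.0 as an alternative. Comparisons of 2 libraries, or of expanded and single clonotypes, took the log2 ratio of CPM after adding 1 UMI as pseudocount, kept genes whose UMIs totalled at least 30, and gave exact conditional Poisson intervals, whereas shares have exact (Clopper-Pearson) intervals, all at 95% and for counting error only. Libraries needed 20 cells for such a comparison, which day 21 did not reach. The minimum of 30 UMIs was on the total of both sides, so genes entered more easily through the side with more UMIs. On simulated counts with 200 genes changed 4-fold, the edgeR step recovered 91% of them with 9 false calls against CD8 T cells (6553 genes) and 79.5% with 6 false calls against Foxp3 CD4 T cells (4373 genes). Work was done in R 4.3.3 (limma 3.58.1) and Python 3.11.15, figures in matplotlib 3.10.9, tables in pandas 2.3.3, arrays in numpy 2.4.6 and exact intervals in scipy 1.17.1.

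The cells, the 29 gene lists (341 genes) and the tests were chosen with earlier results of these data known. The named genes are members of those lists, the 10 highest and 10 lowest of each comparison (in comparisons of 2 libraries, those in at least 10% of the cells of 1 library), leaving out the 10 genes of the rule and gene models, ribosomal and mitochondrial genes, together with the 3 most used V segments and the 5 largest clonotypes. Alternatives were other cell limits, thinning to 2000 UMIs (shallower cells left out), TMM or RLE factors, other pseudocounts and minimums, cells with a TRB contig, no block, and leaving out each library. Added after the data were seen were: no C1q maximum, a TRB contig in place of CD3, at least 5 cells, a proportional pseudocount, single clonotypes, and leaving out the 1 or 2 cells with most UMIs of a gene. Gene places are from GENCODE vM21. Some genes of the lists are counted but not reported by name here. Gene lists are described by counts and medians, without set tests.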

Additional observations from a re-analysis of the deposited data

Results flagged for a closer look

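The share of conventional CD4 T cells differed between L-fuc and control in opposite directions at the 2 times. At day 7 it was 7.70 times as high in L-fuc among passing barcodes and 2.96 times as high among T cells, whereas at day 21 it was 0.416 and 0.450 times as high. Each water and time is 1 pooled library, the day 21 intervals include 1, and the difference between the times was not tested.

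Barcodes that met every criterion but exceeded the C1q limit held receptor contigs and were left out of the main comparisons. These barcodes entered the alternative with no C1q maximum and the barcode counts of clonotypes and segment combinations. A TRB contig was found in 69.4% of them in control day 7 and 75.2% in L-fuc day 7. It was found in 0.348% and 0.196% of C1q-rich barcodes, which were chosen to hold no CD3 UMI. What the barcodes past the C1q limit hold was not tested.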

How the results depend on the processing

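Of the alternatives for shares, thinning to 2000 UMIs before the rule gave 17.6%, 18.3% and 53.7% of T cells at pretreatment, L-fuc day 7 and control day 21. Allowing no C1q UMI gave 9.66% in control day 7 and a day 7 ratio of passing barcodes of 11.9, and no C1q maximum gave 5.50. A TRB contig in place of CD3 UMIs gave 10.2%, 26.5% and 33.3% in control day 7, L-fuc day 7 and L-fuc day 21. The other 63 values of shares moved by less than their interval. With TRB alone in place of both chains, 84.4%, 69.9% and 100% of cells at pretreatment, L-fuc day 7 and L-fuc day 21 had a receptor and 39.6% were expanded in L-fuc day 7, and at 3 CD3 UMIs or more 65.8% in control day 7 had both chains. Against CD8 T cells 212 genes were higher and 115 lower with no filter, 3 and 0 with no library block (265 genes at an unadjusted p under 0.05, edgeR, against 604 with the block), and 4 to 105 and 3 to 30 when 1 library was left out. DESeq2 gave 25 and 16. Against Foxp3 CD4 T cells DESeq2 gave 6 higher and 6 lower, no filter 114 and 60, no library block 3 and 1, removal of Scrublet doublets 50 and 53, cells with a TRB contig 47 and 47, thinning 3 and 4, and at least 5 cells 8 and 9. There leaving out a library or asking for 20 cells left 1 library and gave no value. Of the named genes' values, 274 against CD8 and 171 against Foxp3 CD4 T cells kept their call, and 95 and 103 no longer passed.

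For L-fuc over control at day 7, genes past 2-fold higher and lower were 145 and 194 after thinning, 123 and 104 at 100 UMIs, 80 and 1235 with a pseudocount of 5, 581 and 312 with TMM factors, and 178 and 293 in single clonotypes, and 1037 were lower by the mean of cells' shares. For control day 7 over pretreatment they were 124 and 116, 86 and 103, and 338 and 619 after thinning, at 100 UMIs and with TMM factors. A pseudocount of 5 left 163 lower, and 370 were higher in cells with a TRB contig and 334 in single clonotypes. Thinning, the higher minimum and the subsets of cells test fewer genes, whereas TMM factors and the pseudocount do not. No direction reversed for 864 of 879 and 914 of 922 values of named genes.

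The day 7 log2 ratios that reversed were, in cells with a TRB contig, Atf3 0.72, H2-Aa 0.29, H2-Ab1 0.26, H2-Eb1 0.34 and Lyz2 2.03. In single clonotypes they were Atf3 0.70, Ccl4 -1.32, Cd74 0.33, H2-Aa 0.48, H2-Ab1 0.46 and H2-Eb1 0.52. With no C1q maximum Gbp2 was -0.022, and without the cell holding most UMIs Atf3 was 0.089, Il17a -1.0 and Retnlg -0.57. For control day 7 over pretreatment they were Ccl4 0.19 (thinned), Ccr2 -0.0058, Cd14 0.48 and Ighm 0.26 (no C1q maximum), Gbp2 0.052 and Il13 0.73 (without the top cell), and Lyz2 -1.40 (TRB contig) and -1.71 (single clonotypes). For expanded over single clonotypes Cd14 was -2.74 and -1.57 without the 1 or 2 cells with most UMIs in each group, and Hdc 0.41 without 2, while the counts were 180 or 193 higher and 235 or 282 lower. The causes were not tested. No paired analysis was possible because each condition is 1 pool in which no mouse is identified. Genes were not compared between the waters at day 21, and the test of expanded against single clonotypes was not run, since too few cells or libraries were left, so that these have no alternatives of the test. The number of cells limits the day 21 libraries most, where 1 cell is 6.25% or 20% of all.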

Other observations

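No TRB nucleotide sequence was shared between libraries. However, 3 combinations of V and J segments of both chains occurred in conventional CD4 T cells of 2 libraries with CDR3s of the same length. They were singled out after their values were seen. Differing bases are in capitals, sequences run 5′ to 3′ and positions are counted from 1 at the 5′ end. TRBV31 TRBJ2-2 with TRAV4-2 TRAJ33 held the beta chains with the fewest differences, in 1 conventional CD4 T cell of L-fuc day 7 and 1 of control day 21. Their CDR3s of 45 bases differ by C12T, which falls on the last base of a serine codon and leaves the amino acid the same.
TRB L-fuc day 7: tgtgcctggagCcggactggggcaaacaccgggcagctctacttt
TRB control day 21: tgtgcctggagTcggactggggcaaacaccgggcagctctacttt
The alpha CDR3s of these cells, of 36 bases, differ by A8C and G9T. A second conventional CD4 T cell of L-fuc day 7 had an alpha CDR3 identical to that of control day 21 and a beta CDR3 with 6 differences. This combination was in 6 of 835 barcodes with both chains in L-fuc day 7 and 1 of 43 in control day 21, and in none of the other libraries. Of the 6 barcodes, 4 held both CDR3s of that second cell, itself included.

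TRBV5 TRBJ1-1 with TRAV8D-1 TRAJ48, in 1 of 334 barcodes at pretreatment and 2 of 835 in L-fuc day 7, differed by 3 bases in the beta CDR3 (G12A, C13T and A22T) and 2 in the alpha CDR3 (A12G and G15A). TRBV5 TRBJ2-5 with TRAV4-3 TRAJ13 was in the most barcodes, 18 of 723 in control day 7 (3 of them conventional CD4 T cells) and 3 of 43 in control day 21 (2 of them conventional CD4 T cells), and in none of 334, 835 and 20 at pretreatment, L-fuc day 7 and L-fuc day 21. All 18 barcodes of control day 7 held the same 2 CDR3s, as did all 3 of control day 21, so that each library holds 1 such clonotype.
TRB control day 7: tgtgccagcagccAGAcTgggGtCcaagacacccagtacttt
TRB control day 21: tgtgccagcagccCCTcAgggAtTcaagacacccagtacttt
Its beta CDR3s of 42 bases differ by A14C, G15C, A16T, T18A, G22A and C24T, and its alpha CDR3s by C7G, A8C and G9T. How often such sharing occurs by segment use alone was not tested.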
